A study of Arabidopsis thaliana with 12 samples.

Results

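BGLU28, BGLU15 and PYK10 are 3 Arabidopsis thaliana genes of the family 1 glycoside hydrolases, enzymes that cut beta-linked glucose from plant metabolites. They were chosen by name: each had 1 probe set, 3 of 22810 on the array, and all 3 were among the 13647 probe sets tested. RNA of roots from 10-day-old plants was hybridised to Affymetrix arrays, with 2 arrays, labelled biological replicates, in each of 6 groups of line and medium. The lines were slim1-1, slim1-2 and their parent, called P here. P is Columbia with a T-DNA in which the SULTR1;2 promoter drives GFP, and both mutants carry the same reporter because they were isolated from P by a weak GFP response to sulfur limitation. Low-sulfate agar (S15) had 15 µM added MgSO4 and sufficient agar (S1500) had 1500 µM, on top of about 10 µM residual sulfate in the agar. The groups were slim1-1 on S15 and on S1500, slim1-2 on S15 and on S1500, and P on S15 and on S1500. Each allele is represented by 1 line, so an effect of the allele and any other difference of that line from P cannot be told apart. SLIM1 itself was not analysed here.

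Several beta-glucosidases of this family act on glucosinolates, the sulfur-rich defence compounds of the Brassicaceae, and release sulfur- and nitrogen-containing products when the glucose is removed. BGLU28 is a known transcriptional marker of sulfur deficiency and has been assigned a part in glucosinolate breakdown. BGLU15 is known for hydrolysing flavonol glycosides. PYK10, also called BGLU23, is the main protein of root ER bodies, spindle-shaped compartments derived from the endoplasmic reticulum. SLIM1, the transcription factor of the EIN3-like family affected in the mutants, is known as a regulator of sulfur deficiency responses. BGLU15 and BGLU28 are adjacent genes on chromosome 2, followed in the RefSeq TAIR10.1 gene order by a long non-coding RNA gene and by BGLU29, BGLU17 and PEN2, whereas PYK10 lies on chromosome 3.

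Signals are given as deposited, on a linear scale, or as log2 values after quantile normalization between arrays. Array medians ran from 65.65 to 174.95, the highest being slim1-2-S15 replicate 2 and the next highest 110.8, so deposited signals of that array run high throughout. A change is a difference of group means on the log2 scale, and its standard error (SE) comes from a linear model of all 12 arrays (limma). A change was called at an adjusted p under 0.05, with Benjamini-Hochberg adjustment over the tested probe sets. Levels of different probe sets cannot be compared with each other. A lack of overlap between arrays is given as a description only. With 2 arrays per group it also occurred in comparisons of PYK10, which was never called. Its share over all tested probe sets was not computed. The 4 root markers with a probe set of 1 gene, of 12 listed, were above the control bound on every array, as were 3 of 12 listed shoot markers; the others were not analysed here. The control bound is the highest signal among 27 Bacillus subtilis control probe sets on an array. In bulk root RNA, fewer cells of a type and less RNA per cell cannot be told apart.

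BGLU28 was strongly induced on low sulfate in the parent, and the mutants kept a smaller induction. Its deposited signal in P was 2267.8 and 2764.2 on S15, against 13.9 and 6.2 on S1500. In slim1-1 the signal was 182.2 and 213.2 on S15, against 20.7 and 24.4 on S1500. In slim1-2 the signal was 221.3 and 482.8 on S15, against 17.1 and 17.7 on S1500. The S15 and S1500 arrays did not overlap in any line, and both mutants lay between the parental extremes on S15.

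**Figure D1:**
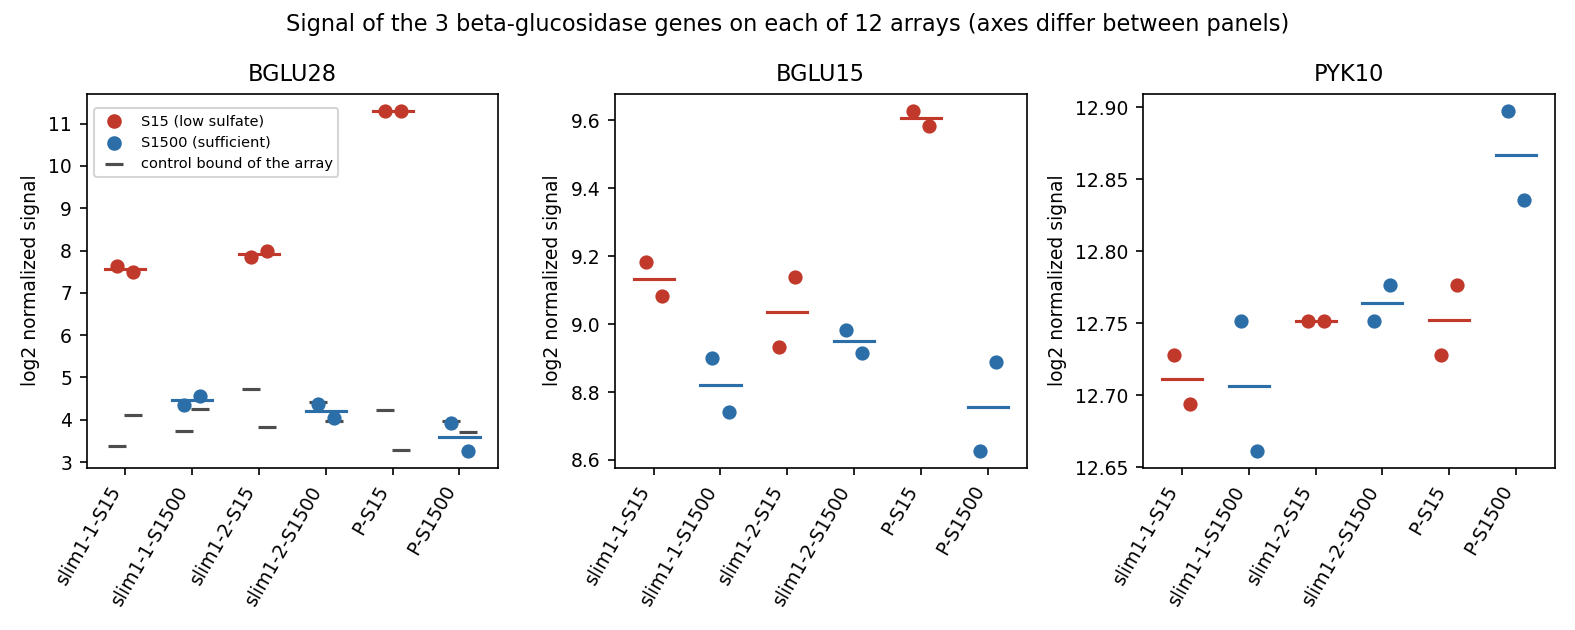
Normalized log2 signal (vertical axis) of BGLU28, BGLU15 and PYK10 on each array, by group of line and medium (horizontal axis); points are arrays, bars group means and dashes in the BGLU28 panel the control bound of each array. The vertical axes differ: BGLU28 spans 8.04 on the log2 scale over the 12 arrays, BGLU15 spans 1.00 and PYK10 spans 0.236.

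On the normalized log2 scale, BGLU28 averaged 11.30 ± 0.014 in P on S15 and 3.60 ± 0.468 in P on S1500 (SD, n = 2 each). The parental change was 7.70 ± 0.204 (SE; adjusted p = 7.14e-12 from limma), and 0 of 13647 tested probe sets had a larger one. Both P arrays on S1500 lay below the control bound, so the size of this change is uncertain. With those arrays taken at their control bounds, the gene was 177-fold higher on S15, which is not a lower limit. In slim1-1 it averaged 7.56 ± 0.0968 on S15 and 4.46 ± 0.146 on S1500, a change of 3.10 ± 0.204 or 8.59-fold (adjusted p = 3.56e-07 from limma). In slim1-2 it averaged 7.92 ± 0.0969 on S15 and 4.21 ± 0.233 on S1500, a change of 3.71 ± 0.204 (adjusted p = 6.11e-08 from limma). Of its 2 arrays on S1500, 1 was above the control bound, so no fold is given. Even in the mutants this induction was among the strongest of the tested probe sets, with 6 of them rising further in slim1-1 and 3 in slim1-2. Probe sets below the filter were not ranked.

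The reduction of the BGLU28 response was tested directly. The slim1-1 response minus the parental response was -4.60 ± 0.288 (95% interval -5.22 to -3.98; adjusted p = 9.64e-07 from limma). The slim1-2 response minus the parental response was -3.99 ± 0.288 (-4.61 to -3.37; adjusted p = 4.09e-06 from limma). No tested probe set had a more negative difference in either line, and 0.418% and 0.887% of probe sets were called in these differences. Both differences contain the same P arrays and are therefore not independent. When every dim value was set to the control bound of its array, they were -4.26 and -3.48.

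On S15 alone, BGLU28 was 13.4-fold lower in slim1-1 than in P (-3.74 ± 0.204; adjusted p = 1.21e-07 from limma) and 10.4-fold lower in slim1-2 (-3.38 ± 0.204; adjusted p = 3.88e-07 from limma). The alleles were close to each other on S15: slim1-1 minus slim1-2 was -0.36 (95% interval -0.80 to 0.07; adjusted p = 0.913 from limma), although their arrays did not overlap. On S1500 both P arrays and 1 slim1-2 array were below the control bound, so the sizes of differences from P there are uncertain. With the P arrays taken at their control bounds, BGLU28 was 1.54-fold higher in slim1-1 and 1.30-fold higher in slim1-2. Neither difference was called as measured (adjusted p = 0.112 and 0.159 from limma). With dim values set to the control bound of their array before normalization, the log2 differences fell to 0.52 in slim1-1 and 0.10 in slim1-2. The fold values are therefore not lower limits. The slim1-1 difference, 0.86 as measured, was called without P-S1500 replicate 1 (1.19, adjusted p = 0.0336 from limma), when a single array below the bound stood for P. The S1500 alleles differed by 0.25 (-0.19 to 0.68; adjusted p = 0.724 from limma). The order of BGLU28 levels was thus P on S15, slim1-2 on S15, slim1-1 on S15, slim1-1 on S1500, slim1-2 on S1500 and P on S1500, as measured. The mutants on S1500 overlapped, and the place of P on S1500 below them rests on signals under the control bound.

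BGLU28 passed the filter on low values through its S15 arrays: its mean log2 signal was 8.93 over the S15 arrays and 4.09 over the S1500 arrays, against a filter level of 5.77. With no filter the 3 responses and both differences were called as well. Adding 64 to every signal lowered the responses to 1.55 in slim1-1, 1.89 in slim1-2 and 5.08 in P, all still called.

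BGLU15, the gene next to BGLU28, rose on low sulfate in the parent, by a much smaller step. Its deposited signal in P was 703.1 and 837.2 on S15, against 359.2 and 346.7 on S1500. In slim1-1 it was 533.4 and 624.5 on S15, against 446.5 and 490.6 on S1500. In slim1-2 it was 468.3 and 1040.4 on S15, against 398.1 and 473.4 on S1500. The value of 1040.4 comes from the array with the highest median, and after normalization the S15 arrays of slim1-2 were at 8.93 and 9.14, overlapping its S1500 arrays at 8.98 and 8.92.

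In P, BGLU15 averaged 9.61 ± 0.0314 on S15 and 8.76 ± 0.184 on S1500 (SD, n = 2 each), a rise of 0.85 ± 0.109 or 1.80-fold (SE; adjusted p = 0.000246 from limma). Of the tested probe sets, 88 rose further and 192 changed further in either direction. The response was 0.31 in slim1-1 (95% interval 0.08 to 0.54; adjusted p = 0.247 from limma) and 0.09 in slim1-2 (-0.15 to 0.32; adjusted p = 0.801 from limma), and neither was called. With no normalization between arrays the slim1-2 value was 0.69, while the median of all tested probe sets moved by 0.61. The slim1-1 arrays on S15, at 9.18 and 9.08, nevertheless lay above those on S1500, at 8.90 and 8.74. Without normalization between arrays the parental rise was 1.12, while the median of all tested probe sets moved by 0.26, and the call was lost (adjusted p = 0.437 from limma).

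The difference of response for BGLU15 was called for slim1-2, at -0.76 ± 0.154 (95% interval -1.09 to -0.43; adjusted p = 0.0288 from limma), and not for slim1-1, at -0.54 ± 0.154 (-0.87 to -0.21; adjusted p = 0.293 from limma). On S15 the gene was lower than in P by 0.47 in slim1-1 and by 0.57 in slim1-2 (-0.47 ± 0.109 and -0.57 ± 0.109; adjusted p = 0.0451 and 0.0168 from limma), with no overlap of arrays. These calls lie near the threshold. The slim1-1 call on S15 ended with the replicate block (adjusted p = 0.0548 from limma), with no filter (0.0875) and without the intensity trend (0.115). The slim1-2 call on S15 ended without the trend (0.0569), and the slim1-2 difference of response with no filter (0.0626) and without the trend (0.107). With no normalization between arrays none of the 3 was called. Leaving out P-S1500 replicate 1 (-0.63) or slim1-2-S15 replicate 1 (-0.66) ended the call of the slim1-2 difference of response. So did leaving out either P array on S15 (-0.74 for replicate 1 and -0.79 for replicate 2) or either slim1-2 array on S1500 (-0.73 for replicate 1 and -0.80 for replicate 2). On S15 alone the slim1-2 call ended without either P array (-0.55 for replicate 1 and -0.59 for replicate 2) or the first slim1-2 array (-0.47), and the slim1-1 value lost it without any of the 8 arrays other than the P arrays on S1500 and the slim1-2 arrays on S15, staying between -0.53 and -0.43.

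On S1500 no difference between the lines was called for BGLU15. The difference from P was 0.06 in slim1-1 (95% interval -0.17 to 0.30; adjusted p = 0.892 from limma) and 0.19 in slim1-2 (-0.04 to 0.43; adjusted p = 0.447 from limma). The alleles differed by 0.10 on S15 (-0.14 to 0.33; adjusted p = 0.997 from limma) and by -0.13 on S1500 (-0.36 to 0.11; adjusted p = 0.734 from limma). Only P on S15 stood apart at the top of the order. Of the other neighbouring groups, slim1-2 on S1500 did not overlap slim1-1 on S1500 below it, the nearest arrays being at 8.92 and 8.90, and the rest overlapped.

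PYK10 showed no called change in any of the 11 comparisons (limma), and 1 of the 11 had an unadjusted p under 0.05. Its deposited signal was 6239.7 and 7234.4 in slim1-1 on S15, against 6557.8 and 6987.5 on S1500. In slim1-2 it was 7372.7 and 8941.8 on S15, against 6457.7 and 6626.2 on S1500. In P it was 6231 and 7839.5 on S15, against 7544.5 and 5607.8 on S1500. The signal overlapped between the media in slim1-1 and in P as deposited, and the slim1-2 arrays on S15 were higher than those on S1500 only before normalization.

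After normalization PYK10 changed by 0.0045 on low sulfate in slim1-1 (95% interval -0.12 to 0.12), by -0.01 in slim1-2 (-0.13 to 0.11) and by -0.11 in P (-0.23 to 0.01), with adjusted p = 0.99, 0.954 and 0.354 from limma. The P arrays did not overlap after normalization, at 12.73 and 12.78 on S15, against 12.90 and 12.84 on S1500. Its largest value was -0.16 for slim1-1 against P on S1500 (-0.28 to -0.04; adjusted p = 0.322 from limma), where the arrays did not overlap. The other comparisons with P were -0.04 (slim1-1 on S15), -0.0007 (slim1-2 on S15) and -0.10 (slim1-2 on S1500). The differences of response were 0.12 in slim1-1 (-0.05 to 0.29) and 0.10 in slim1-2 (-0.07 to 0.27), and the alleles differed by -0.04 on S15 and -0.06 on S1500. P on S1500 stood first in the order of PYK10 levels, above slim1-2 on S1500, P on S15 and slim1-2 on S15, which overlapped in turn, and slim1-1 on S15 and on S1500, which overlapped each other. With median centring instead, P on S1500 was at 13.01 and 12.92. It then overlapped slim1-2 on S1500, at 12.99 and 12.72, and slim1-2 on S15, at 12.93 and 12.18.

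PYK10 gave one of the brightest signals on every array, with 4 to 13 probe sets brighter and 60.8% to 73.4% of the highest signal. Quantile normalization gives each array the same set of values, so a probe set at the top can take few of them, and 4 arrays held PYK10 at 12.75. These intervals are therefore narrow by construction. With median centring they widened to -0.54 to 0.38 in slim1-1, -0.76 to 0.16 in slim1-2 and -0.61 to 0.31 in P, around changes of -0.08, -0.30 and -0.15. Whether the array still responds in proportion to RNA at such signals was not tested.

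Across the 3 genes, 2 of 3 were called in the parental response, both higher, where 3.84% of all tested probe sets were called and 1.78% were called higher. In the slim1-1 and slim1-2 responses 1 of 3, BGLU28, was called, against 2.2% and 3.05% of probe sets. In slim1-1 and slim1-2 against P on S15, 2 of 3 were called, against 1.6% and 1.55%. None was called in the comparisons on S1500 (background 0.432% for slim1-1 against P, 2.21% for slim1-2 against P and 1.69% between the alleles) or between the alleles on S15 (0.183%). The genes were chosen with such results known, so these counts describe them and test nothing.

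**Figure D2:**
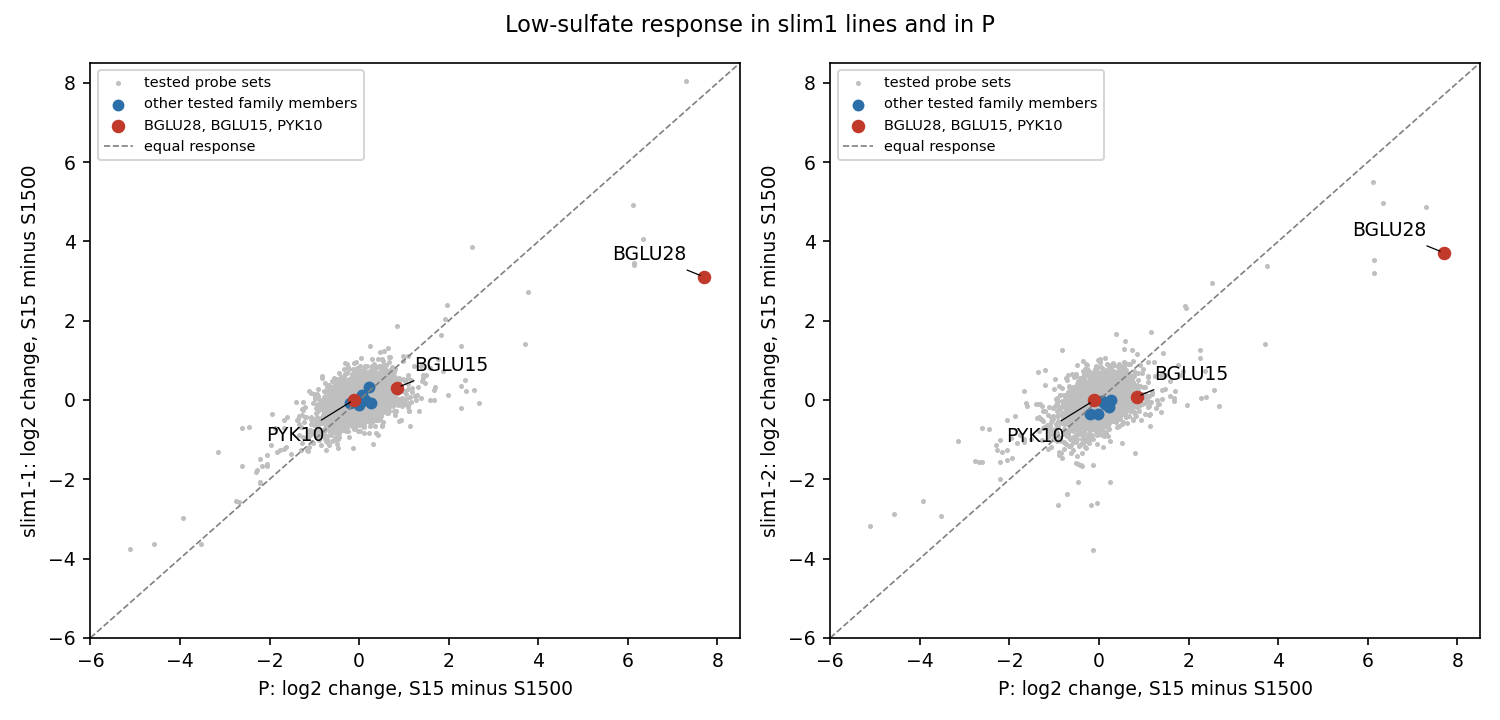
Log2 change on low sulfate in slim1-1 (left) and slim1-2 (right), vertical axes, against that in P, horizontal axes, for 13647 tested probe sets in grey, the 6 other tested family members in blue and the 3 genes in red; the dashed line marks equal responses. BGLU28, at 7.70 in P, lies far below the line in both panels, BGLU15 lies below it by less, and PYK10 lies near 0.

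BGLU28 and BGLU15 varied together over the 12 arrays (Pearson r = 0.90), and PYK10 did not follow them (r = -0.32 with BGLU28 and -0.28 with BGLU15). These are descriptions of arrays that share the same 6 groups. Among 7331 other tested probe sets with 1 gene, the 5 most like BGLU28 were AT1G64590 (r = 0.97), AT3G56200 (0.97), AT5G37990 (0.95), AT3G53980 (0.94) and AT4G31330 (0.94). All 5 rose in the 3 lines, with a lower value in each mutant than in P, and those differences are given without a test. The 5 were picked for likeness to BGLU28 on these same arrays, so a similar pattern follows from the choice. AT4G31330 changed by 1.41 in slim1-1, 1.41 in slim1-2 and 3.70 in P, and AT1G64590 by 0.56, 0.60 and 1.09. The 5 most like BGLU15 were AT4G31330 (r = 0.93), the monooxygenase gene FMO at AT1G12200 (0.92), SFP1, a sugar-porter family protein gene (0.91), UGT72E3, a glucosyltransferase of monolignols (0.91), and AT1G64590 (0.90), so AT4G31330 and AT1G64590 stood on both lists. FMO changed by 0.47 in slim1-1 (adjusted p = 0.0191 from limma), 0.24 in slim1-2 (adjusted p = 0.254) and 1.40 in P (adjusted p = 3.69e-07). UGT72E3 changed by 0.37 in P and was not called (adjusted p = 0.184 from limma). Likeness to PYK10 was lower, from 0.86 for AT4G39670 through AT1G18740, AT5G35735 and AT2G28060 to 0.80 for AT5G08050, and none of these 5 was called in any line's response.

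The rest of the family gave few testable genes. Of 44 other listed family 1 glycoside hydrolases, 19 had a probe set of 1 gene and 6 were tested: BGLU16, BGLU25, BGLU42, BGLU44, BGLU45 and BGLU46, the last 2 known for hydrolysing monolignol glucosides. In the slim1-1, slim1-2 and parental responses 0 of 6 were called (limma), with 1 of 6 in each at an unadjusted p under 0.05. Over all tested probe sets 2.2%, 3.05% and 3.84% were called in these responses, so a count of 0 in 6 does not set the family apart. Their changes ran from -0.12 to 0.34 in slim1-1 (median -0.04, against 0.0016 over all tested probe sets), from -0.36 to 0.0004 in slim1-2 (median -0.14, against 0.01) and from -0.20 to 0.27 in P (median 0.10, against 0.0035). The highest value in P, 0.27, belonged to BGLU16 (adjusted p = 0.194 from limma).

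Between the lines, 2 of these 6 genes had a call, each in slim1-2 against P and 1 per medium. Over all tested probe sets 1.55% were called in slim1-2 against P on S15 and 2.21% on S1500. In the other comparisons of lines 0 of 6 were called. BGLU25 was lower on S15, at 8.07 and 8.10 in slim1-2, against 8.79 and 8.61 in P (-0.62 ± 0.136; adjusted p = 0.0392 from limma). BGLU44, which acts on manno-oligosaccharides, was higher on S1500, at 7.67 ± 0.0302 in slim1-2 and 7.03 ± 0.042 in P (SD, n = 2 each), a difference of 0.65 ± 0.13 (SE; adjusted p = 0.0187 from limma). In neither case did the arrays overlap. Without normalization between arrays they were -0.15 and 0.76 and lost the call. BGLU25 also lost it with no filter, without the intensity trend and without either P-S15 array (-0.52 and -0.71), either slim1-1-S1500 array (-0.62 each) or either slim1-2-S15 array (-0.60 and -0.63), and BGLU44 without either array of P on S1500 (0.68 and 0.62) or of slim1-2 on S1500 (0.67 and 0.63).

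Of the neighbours on chromosome 2, BGLU29 stayed dim and below the filter, with deposited signals of 6.5 to 29.2 and 5 of 12 arrays above the control bound. Its normalized level was 3.36 ± 0.163 in slim1-1 on S15 and 4.40 ± 0.0713 on S1500, 2.94 ± 0.158 in slim1-2 on S15 and 4.33 ± 0.645 on S1500, and 4.07 ± 0.0314 in P on S15 and 3.79 ± 0.516 on S1500 (SD, n = 2 each). With no filter it was not called in any comparison. BGLU17 and PEN2, an atypical myrosinase of pathogen defence, are unnamed in the probe annotation used here and were not analysed here. Nor were the listed TGG myrosinase genes except TGG6, also named BGLU36, which was below the filter. BGLU21 and BGLU22, the closest relatives of PYK10, share 1 probe set and are not reported. The other 11 dim members were below the filter as well, BGLU40 and BGLU47 among them, though these were above the control bound on 12 of 12 arrays.

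**Figure D3:**
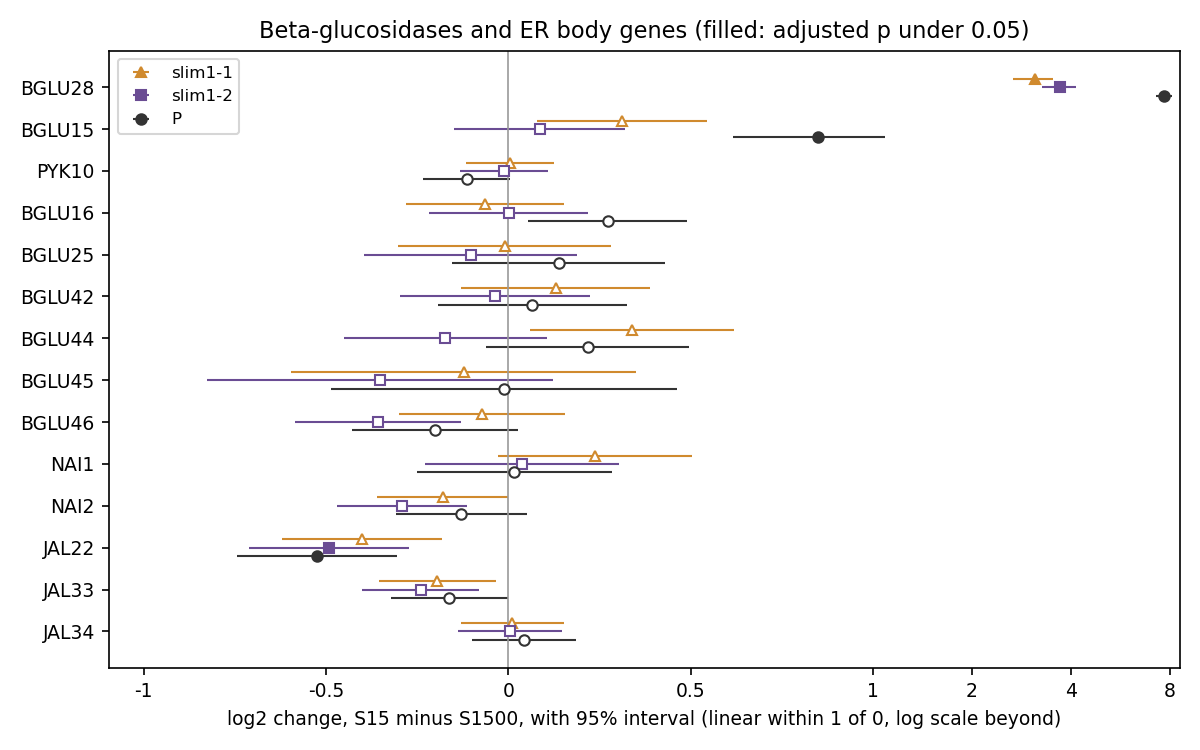
Log2 change on low sulfate with 95% interval (horizontal axis, linear within 1 of 0 and logarithmic beyond) for the 3 genes, 6 other family members and 5 ER body genes, in slim1-1, slim1-2 and P; filled symbols had an adjusted p under 0.05. BGLU28 is filled in the 3 lines, BGLU15 in P, and JAL22 in slim1-2 and P on the side of lower values.

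ER bodies, which hold PYK10, need the transcription factor NAI1 and the ER body protein NAI2, and PYK10 forms complexes with jacalin-related lectins. Of 16 listed genes of this group, 6 had a probe set of 1 gene and 5 were tested, NAI1, NAI2, JAL22, JAL33 and JAL34. Of the 5, 1 was called in the slim1-2 response and 1 in that of P, against 3.05% and 3.84% of all tested probe sets. It was JAL22, a jacalin-related lectin gene, which fell on low sulfate in both lines. It was at 8.97 and 9.17 in slim1-2 on S15, against 9.66 and 9.46 on S1500, a change of -0.49 ± 0.102 (adjusted p = 0.0161 from limma). In P it was at 8.91 and 9.03 on S15, against 9.43 and 9.56 on S1500, a change of -0.53 ± 0.102 (adjusted p = 0.00775 from limma). In slim1-1 the change was -0.40 (adjusted p = 0.0621 from limma), and the differences of response were 0.12 in slim1-1 and 0.03 in slim1-2, not called. The other 4 were not called in any comparison. At an unadjusted p under 0.05 (limma) were 3 of the 5 in the slim1-1 response, 3 in that of slim1-2 and 2 in that of P. JAL33 averaged 11.39 on S15 and 11.59 on S1500 in slim1-1, 11.35 and 11.59 in slim1-2, and 11.48 and 11.64 in P. NAI1 changed by 0.24 in slim1-1, 0.04 in slim1-2 and 0.02 in P, and NAI2 by -0.18, -0.29 and -0.13. The median of the 5 genes was -0.18 in slim1-1, -0.24 in slim1-2 and -0.13 in P. Without normalization between arrays JAL22 was at 0.10 in slim1-2 and -0.27 in P, and neither was called; its slim1-2 call also ended without the intensity trend and without the first array of either slim1-2 group (-0.39 each), and its parental call without P-S1500 replicate 2 (-0.46) or the first P array on S15 (-0.47). None of 13 listed genes for glucosinolate breakdown products, among them the specifier protein and nitrilase genes, had a probe set of 1 gene, and they were not analysed here.

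Some markers of tissues and cell types moved in the same comparisons. Over all tested probe sets 3.84% were called in the response of P. On S15 1.6% were called in slim1-1 against P and 1.55% in slim1-2 against P. The root hair expansin genes EXPA7 and EXPA18, 2 of the 4 measured root markers, rose in P by 0.76 and 0.78 (adjusted p = 0.00799 and 0.000978 from limma) and were lower on S15 in slim1-1 than in P by 0.91 and 0.89, with 0 of 4 root markers called in slim1-2 against P on S15, where EXPA7 was at -0.58 (adjusted p = 0.0793 from limma). The other 2 root markers, GSO1 and AT5G48940, were not called in these comparisons: GSO1 was at 0.02 in slim1-1 against P on S15 and 0.23 in the response of P, and AT5G48940 at 0.35 and -0.21. Their list summed to 1106 to 1113 on normalized linear signals in slim1-1 on S15, 1238 to 1296 in slim1-2 on S15 and 1413 to 1425 in P on S15, and to 1022 to 1069, 1242 to 1306 and 1006 to 1123 on S1500. Of the 3 measured shoot markers, RCA and LHCB4.2 were lower on S15 than in P in both mutants, RCA by 0.65 in slim1-1 and by 0.53 in slim1-2. Both were also called lower in slim1-1 than in P on S1500 (share of all tested probe sets 0.432%). All 3, LHCB4.1 among them, were called lower in slim1-1 than in slim1-2 on S1500 (1.69%). LHCB4.1 kept that call in 5 of 9 alternatives. On S1500 EXPA18 was called at 0.585 in slim1-2 against P (2.21%) and at -0.709 in slim1-1 against slim1-2. These calls and those of LHCB4.2 on S1500 also depended on single arrays. Over arrays left out EXPA18 ran from 0.45 to 0.72 and from -0.84 to -0.58. LHCB4.2 ran from -0.96 to -0.69 in slim1-1 against P and over the same range against slim1-2. With no filter LHCB4.2 in slim1-1 against P was not called (adjusted p = 0.0732 from limma). Single arrays decided some of these calls: EXPA7 in P was not called without P-S1500 replicate 1 (0.52) or either P array on S15 (0.74 and 0.79), EXPA7 in slim1-1 against P without P-S15 replicate 1 (-0.88) or slim1-1-S15 replicate 2 (-0.81), and RCA in slim1-2 against P without any one of the 4 arrays compared (-0.56 to -0.49). With no normalization between arrays the calls of EXPA7, EXPA18, RCA and LHCB4.2 against P on S15 all ended. RCA in slim1-2 against P on S15 was then at -0.087. Those of EXPA7, EXPA18 and RCA in the response of P ended as well, as did those of RCA, LHCB4.2 and EXPA18 on S1500. The RCA value in slim1-2 against P was also not called without the intensity trend (adjusted p = 0.0617 from limma). The shoot list summed to 704.3 to 797.1 in slim1-1, 804.3 to 845.3 in slim1-2 and 1108 to 1118 in P on S15, and to 790.9 to 843.3, 1334 to 1352 and 1310 to 1499 on S1500. No marker of either list was at 0 on any array, and their part in the BGLU28 and BGLU15 differences was not tested. Within P the shoot list was lower on S15 than on S1500, with RCA at -0.43 (adjusted p = 0.0287 from limma). That call ended without P-S1500 replicate 1 (-0.30) or either P array on S15 (-0.47 and -0.40). It also ended without the intensity trend (adjusted p = 0.0736 from limma) and with no normalization between arrays (-0.17). The slim1-2 response had 2 of 3 shoot markers called lower, RCA at -0.72 and LHCB4.2 at -1.65 (3.05% of all tested probe sets called). The slim1-1 response had 1 of 3, LHCB4.2 at -0.70 (2.2%), from -0.83 to -0.57 over arrays left out. Its call ended with no filter, and with no normalization between arrays all 3 ended.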

How the data were processed

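Each array's column holds 1 intensity per probe set, which the authors computed with MAS5 (linear scale), as named by the submitters' processing notes; neither the version nor the target of the scaling is given in the labels. Samples were grouped by title. Members, lists and tests were chosen with earlier results of these data known. For the present values, signals were floored at 1, taken to log2 and quantile-normalized, since array medians spanned 1.41 on the log2 scale, more than the 0.5 set as the limit. Controls (64) were left out. The filter kept the 13647 probe sets whose average lay over the 40th percentile, 5.77. The fit used limma 3.58.1 (R 4.3.3), 1 coefficient for each of 6 groups, and eBayes with an intensity trend; residual degrees of freedom were 6 and prior ones 7.76. P-values are two-sided and Benjamini-Hochberg adjusted within a comparison; the 95% intervals are unadjusted. The procedure was tested on simulated data.

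A fold with arrays taken at their control bounds uses, per array, the higher of the control bound and the dim signal. In the probe annotation 13513 probe sets had 1 gene, of which 13436 matched RefSeq TAIR10.1, used for names and gene order. The genes named are the 3 members, their chromosome 2 neighbours, list members called in a comparison and the 5 tested single-gene probe sets most correlated with each member; other list members serve as examples. Nothing states that replicates came from separate cultures, so p-values measure the spread between these arrays, whose number limits precision. Alternatives tried were median centring, no normalization between arrays, added pseudocounts (16 or 64), dim values set to the control bound, no filter or one at the 60th percentile, no trend, a replicate block, and leaving out each array. Promoter and protein sequences were not analysed here.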

Additional observations from a re-analysis of the deposited data

Results flagged for a closer look

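The low-sulfate response differed between a mutant line and P, by a test of the difference itself, for 3 of the values reported on the beta-glucosidases. For BGLU28 the response minus that of P was -4.60 in slim1-1 and -3.99 in slim1-2. For BGLU15 it was -0.76 in slim1-2, and the -0.54 of slim1-1 was not called. The BGLU15 call ended without any of 6 single arrays named above, with values from -0.80 to -0.63, and with no normalization between arrays (-0.44), with no filter and without the intensity trend. Among the markers, the response of EXPA18 minus that of P was -0.85 in slim1-2 (adjusted p = 0.0219 from limma), with a change of -0.08 in slim1-2 and 0.78 in P; the call ended without any of 6 arrays, those of P on both media and the first of each slim1-2 group, with values from -0.88 to -0.72, and with no normalization between arrays (-0.50). For LHCB4.2 it was -1.23 in slim1-2 (adjusted p = 0.0108 from limma), with a change of -1.65 in slim1-2 and -0.42 in P; the call ended without replicate 2 of P on S1500 (-1.09), replicate 1 of P on S15 (-1.14), replicate 1 of slim1-2 on S1500 (-1.20) or its replicate 2 on S15 (-1.19), and with no normalization between arrays (-0.85). The group size of 2 arrays left single arrays that stand apart unassessed.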

How the results depend on the processing

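BGLU28 kept its calls in the 3 responses, in both differences of response and in both mutants against P on S15 under each alternative that tested it and without each array in turn; at the 60th percentile filter it was not tested. Its values against P on S1500, uncalled with all arrays, ran from 0.52 to 1.19 in slim1-1 and from 0.28 to 0.94 in slim1-2 over arrays left out. Over the other alternatives they ran from 0.17 to 1.28 and from 0.10 to 0.91. With no normalization between arrays, BGLU15 values lost their calls at 1.12 (parental response), -0.41 (slim1-1 against P on S15), -0.14 (slim1-2 against P on S15) and -0.44 (slim1-2 difference of response), its uncalled slim1-2 response was 0.69 and slim1-1 against P on S1500 0.41, and its allele differences turned to -0.27 on S15 and 0.11 on S1500. The median of all tested probe sets then moved by 0.61 in the slim1-2 response, by 0.26 in P and by 0.34 in slim1-1 against P on S1500. PYK10, never called, changed sign there, at 0.10 (parental response), -0.011 (slim1-1 response), 0.31 (slim1-2 response), 0.22 (slim1-2 against P on S15), 0.058 (slim1-1 against P on S1500), 0.0082 (slim1-2 against P on S1500), -0.11 (slim1-1 difference of response) and 0.049 (between alleles on S1500). JAL22 turned to 0.10 in slim1-2. With median centring PYK10 changed sign at -0.080 (slim1-1 response), -0.15 (slim1-2 difference of response) and 0.075 (between alleles on S15). With no filter BGLU15 lost its call against P on S15 in slim1-1 (-0.47, adjusted p = 0.0875 from limma) and in the slim1-2 difference of response (-0.76, adjusted p = 0.0626). Without the intensity trend the adjusted p of these was 0.115 and 0.107, and that of slim1-2 against P on S15 (-0.57) was 0.0569. With the replicate block the slim1-1 value of -0.47 had an adjusted p of 0.0548 and no other call on the 3 genes was lost. Matched by replicate number, deviations from the group means correlated above 0.1 in 4 of 15 pairs of groups, from -0.12 to 0.23. With 2 arrays per group this cannot show whether replicate numbers paired the arrays.

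Over arrays left out, BGLU15 ran from -0.017 to 0.19 (slim1-2 response), -0.53 to -0.43 and -0.68 to -0.47 (slim1-1 and slim1-2 against P on S15), -0.066 to 0.19 (slim1-1 against P on S1500), -0.89 to -0.63 (slim1-2 difference of response) and -0.0057 to 0.20 (between alleles on S15). PYK10 ran from -0.043 to 0.047 (slim1-1 response) and -0.024 to 0.020 (slim1-2 against P on S15). Counts of called probe sets, 524 (parental response), 300 (slim1-1 response), 416 (slim1-2 response), 219 and 211 (slim1-1 and slim1-2 against P on S15), 59 and 302 (on S1500), 57 and 121 (differences of response), 25 and 231 (between alleles on S15 and S1500), were 65, 24, 35, 13, 13, 11, 11, 9, 9, 1 and 12 with no normalization. With no filter they moved to 135 (slim1-2 against P on S15), 188 (slim1-2 against P on S1500) and 9 (between alleles on S15), and without the intensity trend to 130, 180 and 3 for these, 33 (slim1-1 against P on S1500) and 35 (slim1-1 difference of response). Over arrays left out the counts ran, in the order first given, 270 to 556, 137 to 321, 196 to 387, 122 to 225, 90 to 230, 17 to 101, 79 to 273, 38 to 60, 72 to 128, 6 to 35 and 111 to 229. The causes were not tested. Signals near the control bound limit the BGLU28 values on S1500.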

Other observations

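BGLU19, a family member below the filter and singled out after its values were seen, had deposited signals of 55.6 and 8.1 in slim1-2 on S15 and 124.2 and 192.6 in slim1-2 on S1500. It was at 5.8 and 4.2 in slim1-1 on S15 and 1.5 and 5.3 in slim1-1 on S1500, and at 1.7 and 20.8 in P on S15 and 43.3 and 22.4 in P on S1500. It was above the control bound on 6 of 12 arrays, and with no filter it was not called in any comparison. Without the filter, slim1-1 minus slim1-2 on S1500 was -6.11 ± 1.24 (SE; adjusted p = 0.0591 from limma). Both slim1-1 arrays on S1500 were below the control bound, so the size of that difference is uncertain.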
